A study of Rattus norvegicus with 12 samples.

Results

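The BCL2 family genes are described here in primary rat atrial fibroblasts. The 10 genes were chosen by symbol from the 22850 features listed in the expression tables, and all 10 were found. They comprise the effectors Bax and Bak1, the anti-apoptotic members Bcl2, Bcl2l1 and Mcl1, and the BH3-only members Bid, Bcl2l11, Bad, Bbc3 and Pmaip1. The cells came from the atria of newborn Sprague-Dawley rats and were separated by differential adhesion, which enriches fibroblasts without sorting them. AngII, angiotensin II, was given at 1 μmol/L for 48 h in medium with 2% serum, either alone, after HNG at 10 μmol/L or after MOTS-c at 5 μmol/L, each peptide being added 1 h earlier. HNG is an analogue of humanin with a glycine in place of a serine, and MOTS-c is a different peptide, also encoded in mitochondrial DNA. Each of the 3 groups, AngII, AngII+HNG and AngII+MOTS-c, held 4 libraries. All 12 libraries carry AngII, so each peptide was compared with AngII alone and not with untreated cells.

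Proteins of the BCL2 family set the threshold of the mitochondrial route to apoptosis. BAX and BAK open the outer mitochondrial membrane and release cytochrome c, the anti-apoptotic proteins hold them in check, and the BH3-only proteins relay stress signals by binding the anti-apoptotic proteins or by engaging BAX and BAK directly. Humanin is known to bind BAX, BID and BIM, the product of Bcl2l11, which makes the transcript levels of this family a natural readout beside an HNG treatment. Such binding acts on proteins, which were not measured in these libraries. In heart tissue the family is known for its part in cardiomyocyte loss after ischaemia and in the resistance of activated fibroblasts to apoptosis.

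Bid was the 1 gene of the 10 with a called difference, and its promoter is shown for that reason. The window of 300 bases spans the start of the gene and was taken from RefSeq (build GRCr8, chr4:155808270-155808569, minus strand), with each GGGCGG, the core of a GC box, in capitals.
Bid: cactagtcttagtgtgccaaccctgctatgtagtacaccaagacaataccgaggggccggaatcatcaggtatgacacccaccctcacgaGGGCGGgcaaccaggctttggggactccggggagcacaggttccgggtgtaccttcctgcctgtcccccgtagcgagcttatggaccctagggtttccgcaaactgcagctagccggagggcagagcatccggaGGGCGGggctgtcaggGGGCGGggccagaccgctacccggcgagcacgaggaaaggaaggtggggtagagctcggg

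The window had a GC content of 63.3% and held GGGCGG at 3 places, beginning at positions -160, -26 and -10 relative to the start. Searched on both strands, GGGCGG was present in the windows of 6 of the 8 members that have one, Bak1, Bcl2l1, Bcl2l11, Bid, Mcl1 and Pmaip1, and in 33.1% of all 33469 windows. Bcl2l1 held it in 1 of its 4 windows. CACGTG, an E-box bound by several stress and growth regulators, was in the window of 0 of the 8 members and in 6.42% of all windows. Bax and Bbc3 have no window in the table. These matches describe the letters of the windows and no binding was measured.

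Between 27960586 and 38322354 reads were counted per library, and a count of 3, taken as the limit of detection, equalled 0.0783 to 0.107 CPM. CPM is the count scaled to a common library total, and the limit accounts for counting error alone. The fibroblast markers were present in every library, with a median of 4256 FPKM for Col1a1 and 31.9 FPKM for Pdgfra. FPKM is the count divided by gene length and library total, and the implied length of some genes differed between libraries. Cardiomyocyte genes were also abundant, with a median of 2472 FPKM for Nppa and 728 FPKM for Tnnt2. Genes of both cell types were thus abundant in libraries labelled as fibroblasts, and every level below is a level of the whole culture. In such bulk RNA, fewer cells of a type and less RNA per cell cannot be told apart. HNG replicate 3 stood apart from the other libraries, since the deviation of a gene from its group mean was related to gene length there with a Spearman coefficient of -0.393, against -0.197 to 0.261 in the other 11 libraries. The differences of Bid, Bax, Bcl2l11 and Bbc3 with HNG, the variation of the 4 most variable members, and the ratios and shares between members are given with and without it. The labels do not say whether replicates came from separate cultures, while the study describes them as biological replicates and as independent samples. The p-values measure the spread between these libraries, part of which may be technical. In every group the names of replicates 2 and 3 share a number, whose meaning is not given in the sources used here.

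All members were expressed well above this limit of detection, and their levels spanned a wide range. Mcl1, a short-lived anti-apoptotic protein that many cells need continuously, had the highest level, with a median of 65.7 FPKM over the 12 libraries and a range of 63.2 to 67.6. Bax followed with a median of 58.8 FPKM (55.6 to 88.0). Bcl2l1, which encodes BCL-XL, stood at 22.6 FPKM (20.7 to 26.3), next to Bad, a BH3-only gene whose protein is switched off by survival kinases, at 22.4 (19.7 to 24.5). Bak1 had 17.1 FPKM (15.5 to 18.5) and Pmaip1, which encodes the MCL1-binding protein NOXA, 16.5 (13.7 to 22.9). Bbc3, which encodes PUMA, lay at 9.66 FPKM (8.31 to 11.9). The lowest 3 members were Bid at 4.34 FPKM (3.40 to 5.92), Bcl2l11 at 3.63 (3.31 to 4.55) and Bcl2 at 2.91 (2.55 to 3.95). Bcl2, the founding member of the family, thus had the lowest level of the anti-apoptotic genes, and it rested on 91 to 161 counts per library.

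**Figure D1:**
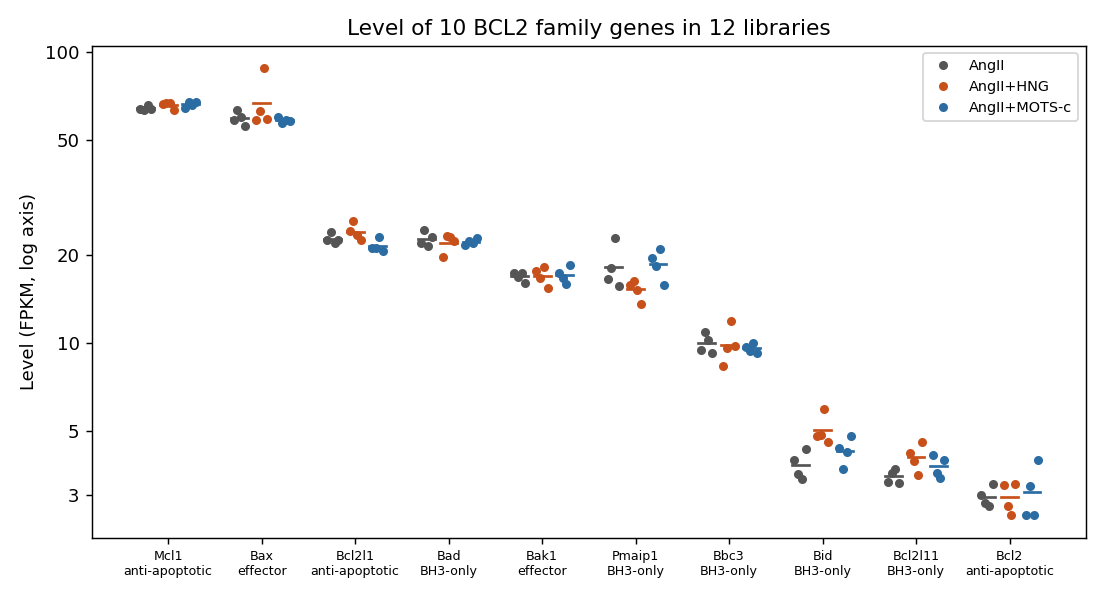
Level of each of the 10 members in the 12 libraries, in FPKM on a log axis, ordered by median. Points are libraries and short lines are group means (n = 4), and the 3 groups of a gene mostly lie on top of each other while the genes run from about 3 to 88.0 FPKM.

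The order was separated by clear gaps in some places and not in others. The ranges over all 12 libraries did not overlap between Bax and Bcl2l1, between Bad and Bak1, between Pmaip1 and Bbc3 or between Bbc3 and Bid. Mcl1 exceeded Bax in 10 of 12 libraries and Bid exceeded Bcl2l11 in 10 of 12. Bcl2l1 against Bad and Bak1 against Pmaip1 held their order in only 7 of 12 libraries each, so these neighbours did not differ beyond their spread. Bcl2l11 was above Bcl2 in 12 of 12 libraries although their ranges overlapped. The order depends on dividing by length, since the lengths implied by counts and FPKM, averaged over the libraries, ran from 333 bases for Pmaip1 to 5366 for Bcl2l11. The implied length could differ between libraries. Bcl2l1 had 71.3 and 71.4 CPM in AngII replicates 1 and 2, but 22.5 and 24.2 FPKM.

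The members also differed in how much they varied. The coefficients below pool the 3 groups and include counting error, which is larger at low counts. Mcl1 rested on 4164 to 5684 counts per library, Bid on 241 to 415, Pmaip1 on 148 to 252 and Bcl2 on 91 to 161. Mcl1 was the steadiest, with a coefficient of variation of 2.58% over the 12 libraries. Bad, Bak1 and Bcl2l1 followed at 5.31%, 5.34% and 6.81%. Bid stood at 15.9%, Pmaip1 at 15.3%, and Bax and Bcl2 both at 13.9%. The order at the upper end rested on HNG replicate 3. Without this library the coefficient was 3.88% for Bax, second to Mcl1 among the steadiest, 12.2% for Bid, 13.5% for Bcl2 and 15.3% for Pmaip1.

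The first comparison asked whether HNG altered the family in cells given AngII. Bid was higher with HNG and the other 9 members did not pass the test. Of all 14524 genes tested, 5.98% were called at an adjusted p-value below 0.05 (edgeR quasi-likelihood test, Benjamini-Hochberg), 3.4% being higher and 2.58% lower. Against that background, 1 of 10 members called is not a share that stands out. The median log2 fold change was 0.0044 over the members and 0.0043 over all genes tested, with 5 members above 0 and 5 below. The median size of the change, regardless of sign, was 0.067 for the members and 0.087 for all genes.

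Bid encodes the BH3-only protein that caspase-8 cleaves to pass death receptor signals on to mitochondria. Its level was 3.97, 3.55, 3.40 and 4.33 FPKM in the AngII libraries. It was 4.78, 4.83, 5.92 and 4.58 FPKM with HNG. With MOTS-c it was 4.35, 3.69, 4.22 and 4.81 FPKM. All HNG libraries lay above all AngII libraries, a separation seen in either direction in 13.7% of the genes tested, and the MOTS-c libraries overlapped both groups. The raw counts behind these levels were 241 to 340 with AngII, 287 to 415 with HNG and 258 to 338 with MOTS-c.

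Bid rose from 3.81 ± 0.418 FPKM (SD, n = 4) with AngII to 5.03 ± 0.606 with HNG. The log2 fold change was 0.39 with a standard error of 0.104 and a 95% interval of 0.17 to 0.62, an increase of 31.2% (12.2% to 53.4%). The adjusted p-value of 0.0450 lay close to the threshold, and Bid ranked 791 among the tested genes by p-value. The call was lost when any of AngII replicates 1, 2 or 3 or HNG replicates 1, 2 or 3 was left out, with adjusted p-values of 0.0596 to 0.139, while the log2 fold change stayed between 0.30 and 0.49 in each of 19 alternatives. Without HNG replicate 3, where Bid was highest, it was 0.30 with an adjusted p-value of 0.0811. The call was also lost with replicates 2 and 3 of each group summed to 1 library (adjusted p = 0.119) and with limma on log2 FPKM plus 1 or plus 0.1 (adjusted p = 0.0635 and 0.0593).

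**Figure D2:**
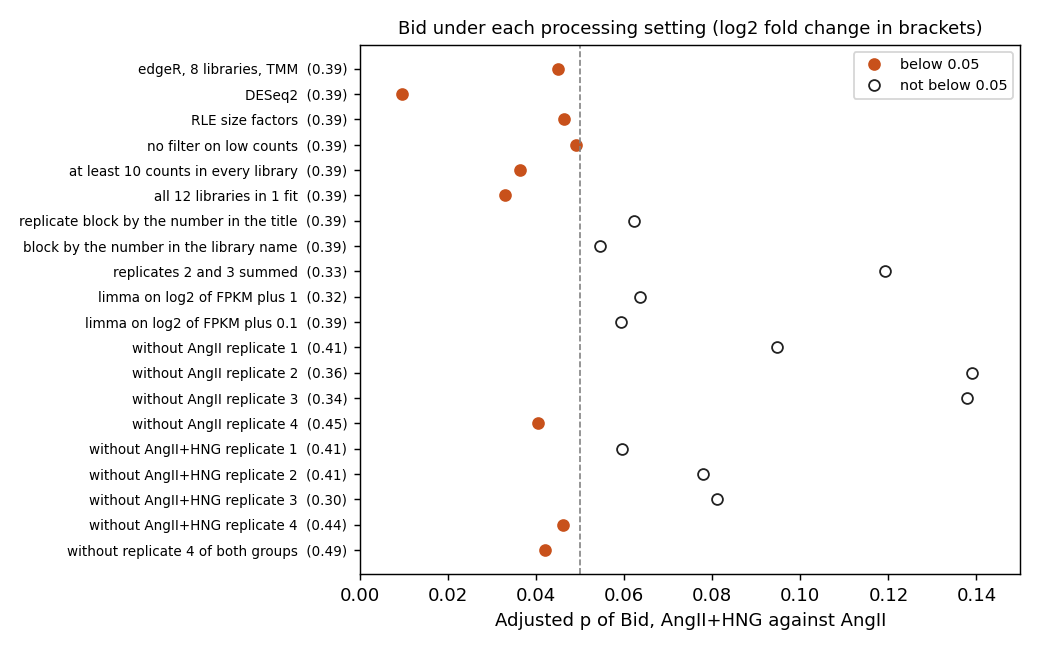
Adjusted p-value of Bid, AngII+HNG against AngII, under the reported test and 19 alternatives, each with its log2 fold change in brackets. The dashed line marks 0.05; 8 alternatives lie below it and 11 above it, and every log2 fold change lies between 0.30 and 0.49.

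Markers of some other cell types moved in the same comparison as Bid, where 5.98% of all genes tested were called. The summed level of 8 macrophage markers was 118.2 to 141.9 FPKM with AngII, 175.5 to 234.3 with HNG and 117.3 to 143.5 with MOTS-c. Of the 7 that were tested, 4 were higher with HNG, namely Cd68, Mrc1, Ptprc and Lyz2, and Cd163 was near 0 with a median of 0.031 FPKM. Of 6 endothelial markers 3 were higher with HNG, the sum being 20.8 to 22.8 against 15.6 to 18.3 FPKM, and of 6 smooth muscle and pericyte markers 3 were lower, the sum being 146.1 to 155.0 against 187.0 to 196.6 FPKM. Of 8 fibroblast markers 2 were higher with HNG and 0 lower. Of 7 cardiomyocyte markers 0 were called, and of 3 tested Schwann markers 0. The cardiomyocyte sum was 3537 to 4393 FPKM with HNG and 3585 to 3812 with AngII. It was highest in HNG replicate 3, where Bid was also highest. Within the HNG group the library with the highest macrophage sum, replicate 4, had the lowest Bid level. Within both the AngII and the MOTS-c group, replicate 4 had the highest of both. The part of other cell types in the Bid result was not tested.

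**Figure D3:**
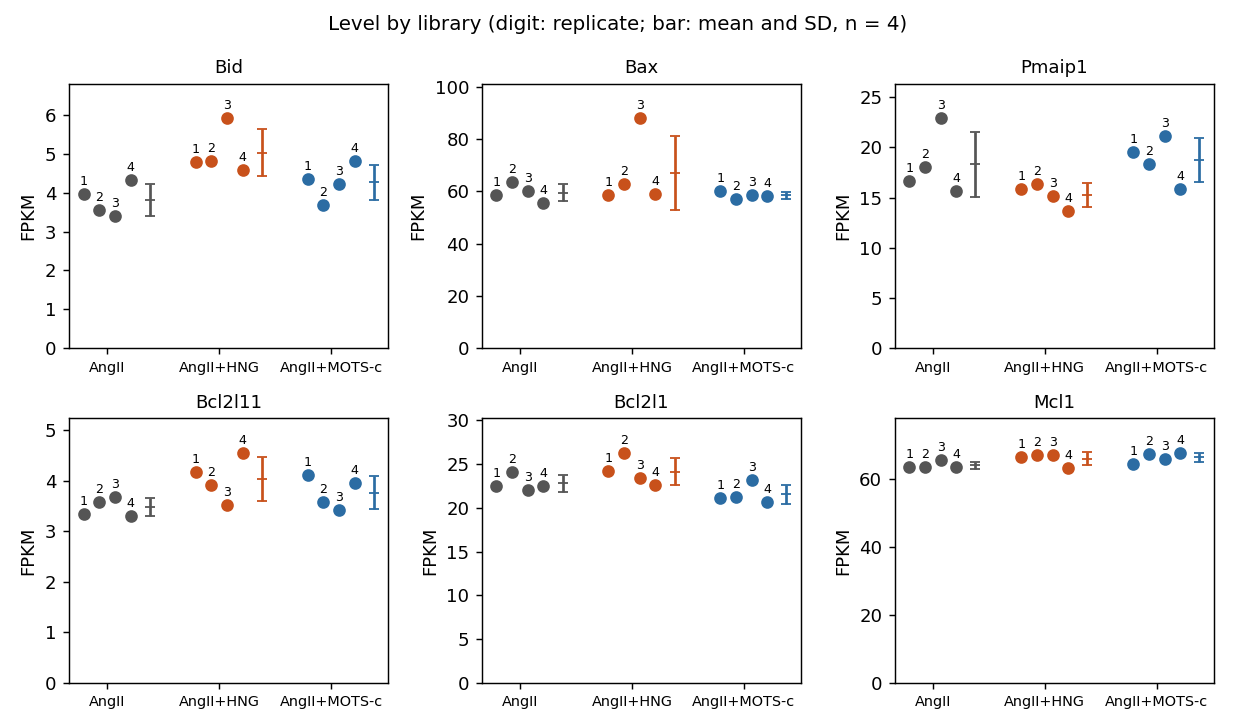
FPKM by library for Bid, Bax, Pmaip1, Bcl2l11, Bcl2l1 and Mcl1, with axes starting at 0, the replicate number at each point, and the mean with SD beside each group (n = 4). Bid is higher in all 4 HNG libraries than in the AngII libraries, and Bax is high in HNG replicate 3 alone, at 88.0 FPKM.

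The effector genes did not pass the test. Bax, whose protein moves from the cytosol to mitochondria on activation, stood at 58.5, 63.4, 59.9 and 55.6 FPKM with AngII. With HNG it stood at 58.4, 62.9, 88.0 and 59.0 FPKM. A single HNG library was therefore far above the rest and the other 3 lay inside the AngII range. The log2 fold change of Bax was 0.16 with a standard error of 0.109 and an adjusted p-value of 0.465, and without HNG replicate 3 it was 0.0017 with an adjusted p-value of 0.992. In that library, 731 genes with a length within 20% of that of Bax deviated from their group means by a median of 0.147 on the log2 scale, and Bax by 0.408. Bak1, whose protein resides in the outer membrane, was 17.0 ± 1.20 FPKM with HNG and 16.9 ± 0.629 with AngII, with a 95% interval of the log2 fold change from -0.12 to 0.09.

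The 3 anti-apoptotic genes were close to their AngII levels with HNG. Mcl1 was measured most tightly, at 65.9 ± 1.84 FPKM with HNG and 64.0 ± 1.04 with AngII, and its 95% interval on the log2 scale was -0.05 to 0.10. Bcl2l1 stood at 24.1 ± 1.57 against 22.8 ± 0.934 FPKM, a log2 fold change of 0.08 with an interval of -0.03 to 0.18 and an adjusted p-value of 0.416. Bcl2 had 2.96 ± 0.364 against 2.96 ± 0.227 FPKM, with an interval of -0.29 to 0.25.

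Among the other BH3-only genes, Bcl2l11 and Pmaip1 had unadjusted p-values below 0.05 and did not pass the adjustment. With Bid they made 3 of 10 members at that unadjusted level, where 20.3% of all genes tested lay. Bcl2l11, which encodes BIM, stood at 3.34, 3.58, 3.68 and 3.31 FPKM with AngII and at 4.18, 3.92, 3.51 and 4.55 with HNG. The HNG values were higher except in replicate 3, which fell inside the AngII range. The log2 fold change was 0.19 (95% interval 0.02 to 0.36, adjusted p = 0.200), and without HNG replicate 3 it was 0.25 with an adjusted p-value of 0.0514. Without replicate 4 of both groups it was 0.10 with an adjusted p-value of 0.578.

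Pmaip1 went the other way in value. It had 16.7, 18.0, 22.9 and 15.6 FPKM with AngII and 15.9, 16.4, 15.2 and 13.7 FPKM with HNG, so that the groups overlapped and the AngII values were the more scattered. Its log2 fold change was -0.28 with a standard error of 0.126 and an adjusted p-value of 0.245, and without AngII replicate 3, the library with the highest level, it was -0.15 with an adjusted p-value of 0.533. Bad and Bbc3 differed little between the groups. Bad had 22.1 ± 1.67 FPKM with HNG and 22.8 ± 1.34 with AngII (adjusted p = 0.680). Bbc3 had 9.88 ± 1.48 and 9.96 ± 0.738 FPKM (adjusted p = 0.895), and without HNG replicate 3 its log2 fold change was -0.14 with an adjusted p-value of 0.366.

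The second comparison asked the same of MOTS-c, and 0 of 10 members passed the test. In this comparison 1 of 14488 genes was called in all, or 0.0069%. At an unadjusted p-value below 0.05 there were also 0 of 10 members and 5.05% of all genes, and DESeq2 and limma called 0 members. The adjusted p-values of the members in edgeR ran from 0.924 to 0.999, and the members were split into 5 above and 5 below AngII. The median size of the change was 0.045 for the members and 0.051 for all genes on the log2 scale.

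The intervals of these differences show what the design could resolve. The narrowest was that of Mcl1, which had 66.2 ± 1.45 FPKM with MOTS-c and an interval of -0.02 to 0.10 on the log2 scale. Bax had 58.4 ± 1.18 FPKM with an interval of -0.12 to 0.06, and Bak1 had 17.2 ± 1.08 with -0.10 to 0.10. Bid had 4.27 ± 0.461 FPKM with MOTS-c, a log2 fold change of 0.15 and an interval of -0.06 to 0.36. The interval of Bid overlaps the one for HNG and does not show that MOTS-c left it unaltered. Bcl2l1 had the smallest p-value of the 10, at 21.6 ± 1.08 FPKM, with a log2 fold change of -0.09, an interval of -0.18 to 0.01 and an adjusted p-value of 0.924. The widest intervals were those of Bcl2, -0.27 to 0.37, and Pmaip1, -0.25 to 0.30. Bcl2l11 had 3.77 ± 0.319 FPKM (interval -0.04 to 0.26) and Bbc3 9.60 ± 0.354 (interval -0.21 to 0.07).

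**Figure D4:**
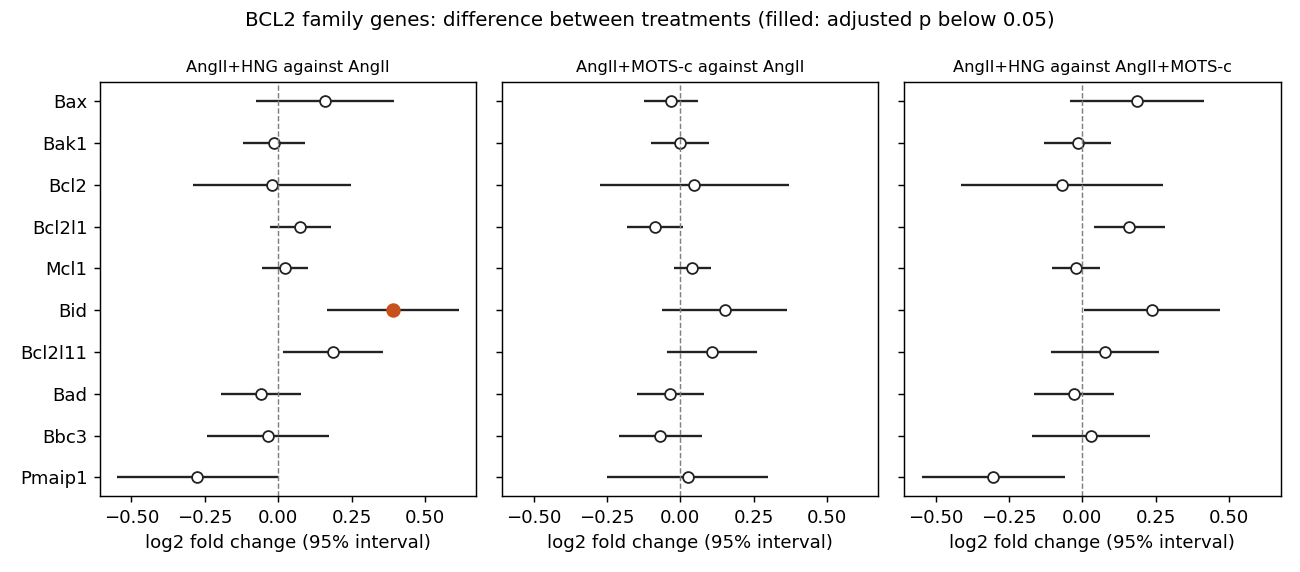
Log2 fold change of the 10 members in the 3 comparisons, with 95% intervals from the edgeR fit. The filled point, Bid with HNG against AngII at 0.39, is the 1 difference with an adjusted p-value below 0.05.

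The third comparison set the peptides against each other and tests their difference directly. It called 0 of 10 members, where 4.41% of the 14448 genes tested were called, 2.64% higher and 1.77% lower with HNG. At an unadjusted p-value below 0.05 there were 3 members, Bcl2l1, Pmaip1 and Bid, and 19.3% of all genes. DESeq2 and limma also called 0 members, while edgeR with the replicate number as a block called 1, Bcl2l1 (adjusted p = 0.0448).

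Bcl2l1 was 24.2, 26.3, 23.5 and 22.6 FPKM with HNG and 21.2, 21.3, 23.2 and 20.7 with MOTS-c. MOTS-c replicate 3 exceeded 1 HNG library, and the other MOTS-c libraries lay below all of them. The log2 difference was 0.16 with a standard error of 0.056, a 95% interval of 0.04 to 0.28 and an adjusted p-value of 0.133. Pmaip1 was 19.6, 18.4, 21.1 and 15.8 FPKM with MOTS-c, and its log2 difference of -0.30 (HNG against MOTS-c) had an interval of -0.55 to -0.06 and an adjusted p-value of 0.156. For Bid the log2 difference was 0.24 with an interval of 0.0068 to 0.47 and an adjusted p-value of 0.246. Bid was thus called against AngII with HNG and not with MOTS-c, but the difference between the peptides did not pass the test. Without HNG replicate 3 it was 0.15 with an adjusted p-value of 0.465. For Bax the log2 difference was 0.19 with an adjusted p-value of 0.358, and 0.029 with an adjusted p-value of 0.790 without HNG replicate 3.

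Ratios between members, which are often used to describe the balance of the family, are given as descriptions. The ratio of Bax to Bcl2 was 20.2 ± 2.45 with AngII, 23.3 ± 7.76 with HNG and 19.7 ± 4.19 with MOTS-c. It was 34.4 in HNG replicate 3, and without that library the HNG mean was 19.6 ± 2.84 (n = 3), below that of AngII. The ratio of Bax to Bcl2l1 was 2.60 ± 0.106, 2.79 ± 0.647 and 2.71 ± 0.141 in the same order, and 2.47 ± 0.120 with HNG without replicate 3, again below AngII. The ratio of Mcl1 to Bcl2l11, an inhibitor and one of its partners, was 18.4 ± 0.794, 16.5 ± 2.18 and 17.7 ± 1.62, and 15.6 ± 1.62 with HNG without replicate 3. The HNG means of both ratios with Bax thus lay above or below AngII depending on 1 library. Summed over FPKM, the anti-apoptotic genes made up 39.1% to 41.2% of the family with AngII, 35.9% to 42.1% with HNG and 39.2% to 41.1% with MOTS-c. The lowest HNG share was that of replicate 3, and the other HNG libraries had 40.8% to 42.1%. The BH3-only genes made up 25.2% to 26.9%, 23.0% to 25.1% and 25.2% to 26.8%, so that the HNG libraries lay just below those of the other groups, and without HNG replicate 3 they had 23.7% to 25.1%. The BH3-only sums themselves overlapped, at 55.5 to 61.7 FPKM with AngII, 52.8 to 59.7 with HNG and 56.8 to 60.9 with MOTS-c. Bad and Pmaip1 made up most of these sums. The effectors made up 33.1% to 34.7%, 34.1% to 41.0% and 32.8% to 34.4%, the other HNG libraries than replicate 3 having 34.1% to 34.2%.

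The genes whose log2 CPM was most like that of Bid over the 12 libraries were Scrn1 (Pearson r = 0.958), Spns1 (0.947) and Neu1 (0.915), out of 11319 genes compared. Spns1 encodes a lipid transporter of lysosomes and Neu1 a lysosomal sialidase. These correlations are descriptions, and the libraries share treatment groups and depth. With HNG against AngII the log2 fold changes of Scrn1, Spns1 and Neu1 were 0.15, 0.14 and 0.15, with adjusted p-values of 0.0736, 0.174 and 0.187. GGGCGG was also found in the windows of Scrn1 and Neu1, and CACGTG in that of Spns1.

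Genes around the family were examined in 7 lists. The first held 13 further family members, of which 9 could be tested, and Bcl2a1, with HNG against AngII, was the 1 that was called. A single call among 9 genes, where 5.98% of all genes were called, says nothing about the list as a whole. Bcl2l10, Hrk, Bcl2l14 and Bcl2l15 were too low to test. Bcl2a1 encodes the anti-apoptotic protein A1, known from haematopoietic cells and induced by inflammatory signals. It stood at 3.60, 4.27, 5.07 and 4.96 FPKM with AngII, 5.96, 7.36, 7.95 and 6.90 with HNG, and 4.55, 4.78, 5.67 and 6.84 with MOTS-c. All HNG libraries exceeded all AngII libraries, and the MOTS-c libraries overlapped both. The log2 fold change with HNG was 0.64 with a standard error of 0.137 and an adjusted p-value of 0.0153. The call was lost without AngII replicate 1 (adjusted p = 0.0577) or AngII replicate 2 (adjusted p = 0.0592). Bcl2a1 was higher with HNG than with AngII, as was the macrophage sum given above. Within the AngII and the HNG group, the library with the highest macrophage sum, replicate 4, did not have the highest Bcl2a1 level. Within the MOTS-c group replicate 4 had the highest of both. The part of macrophages in the Bcl2a1 result was not tested. Against MOTS-c the log2 difference of Bcl2a1 was 0.36 with an adjusted p-value of 0.199.

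**Figure D5:**
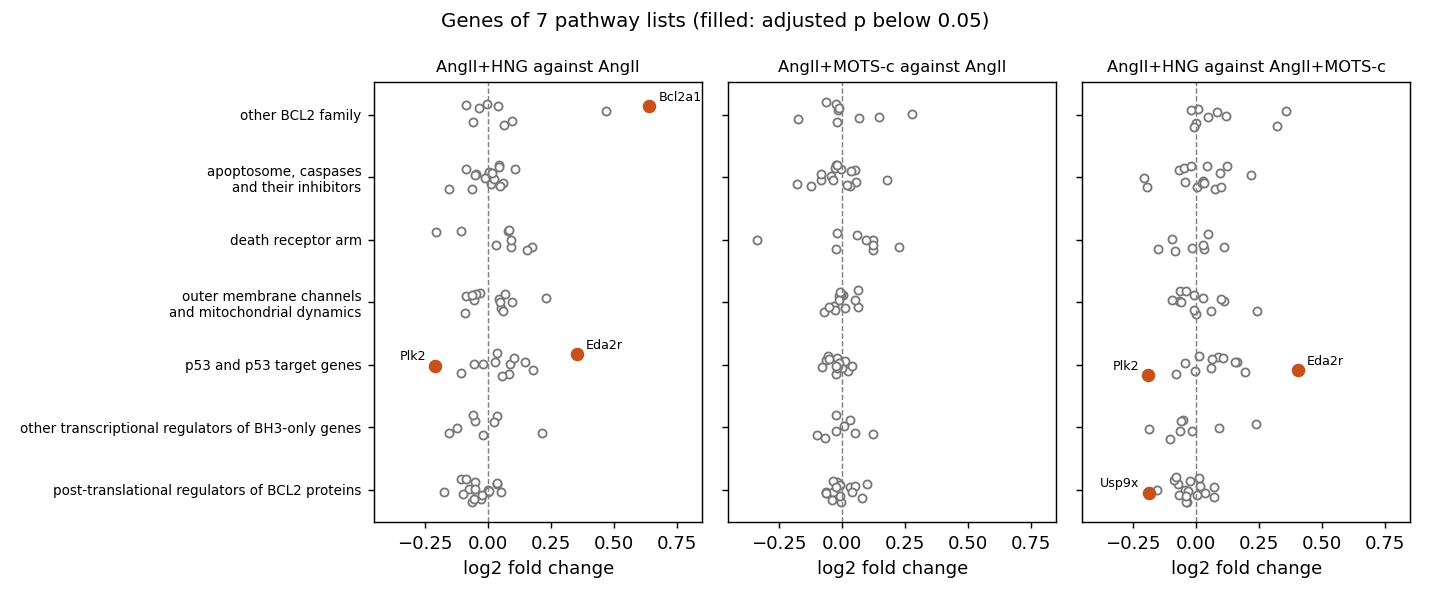
Log2 fold change of each tested gene of the 7 pathway lists in the 3 comparisons. Filled points are genes with an adjusted p-value below 0.05: Bcl2a1 and Eda2r above 0 and Plk2 below 0 with HNG against AngII, Eda2r above 0 and Plk2 and Usp9x below 0 with HNG against MOTS-c, and 0 genes with MOTS-c against AngII.

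The apoptosis and mitochondrial machinery around the family held 0 called genes in the reported edgeR tests, with 1 gene close to the threshold. Of 16 genes of the apoptosome, the caspases and their inhibitors, all tested, 0 were called in the 3 comparisons, and 1, 0 and 1 had an unadjusted p-value below 0.05 for HNG against AngII, MOTS-c against AngII and HNG against MOTS-c. The shares over all genes were 20.3%, 5.05% and 19.3%. Apaf1, the scaffold of the apoptosome, had the smallest p-value, at 8.42 ± 0.561 FPKM with HNG and 9.62 ± 0.382 with MOTS-c (log2 difference -0.20, adjusted p = 0.0522). Apaf1 was called in 7 of 19 alternatives, its adjusted p-value ranging from 0.0133 to 0.149. Of 10 genes of the death receptor arm, which acts through Bid, 8 or 9 were tested and 0 called. Tnfrsf1a, a receptor of tumour necrosis factor, was 76.3 ± 3.27 FPKM with HNG and 70.1 ± 1.88 with MOTS-c (adjusted p = 0.172). Of 13 genes of outer membrane channels and mitochondrial dynamics 0 were called, and Vdac2, a channel that binds BAK, was 111.5 ± 6.35 FPKM with HNG and 102.5 ± 1.95 with MOTS-c (adjusted p = 0.188).

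Of the upstream regulators, p53 and its targets gave the only calls in more than 1 comparison. Of 13 genes tested, Eda2r rose and Plk2 fell with HNG against AngII, and both were also called in the same direction against MOTS-c, the HNG libraries being shared by these comparisons. In these comparisons 5.98% and 4.41% of all genes were called, and 2 of 13 genes in opposite directions are too few to describe the list. At an unadjusted p-value below 0.05 there were 4 and 5 of 13, beside 20.3% and 19.3% of all genes. The median log2 fold change of the list with HNG against AngII was 0.056, beside 0.0043 for all genes. Eda2r, a receptor of the tumour necrosis factor family, was 6.08 ± 0.231 FPKM with HNG, 4.75 ± 0.361 with AngII and 4.46 ± 0.416 with MOTS-c. Its log2 fold change was 0.35 against AngII (adjusted p = 0.00408) and 0.40 against MOTS-c (adjusted p = 0.00594), and each call was kept in all 19 alternatives. Plk2, a stress-responsive kinase, was 38.3 ± 1.39 FPKM with HNG, 43.7 ± 1.85 with AngII and 43.2 ± 2.25 with MOTS-c. Its log2 fold change was -0.21 against AngII (adjusted p = 0.0115, kept in all 19 alternatives) and -0.19 against MOTS-c (adjusted p = 0.0331, lost in 10 of 19). Bbc3, Pmaip1 and Bax, well-known p53 targets among the 10 members, were not called in these comparisons.

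Of 9 other transcriptional regulators of BH3-only genes, 8 were tested and 0 called. Atf4, a regulator of the integrated stress response that can induce Pmaip1 and Bbc3, was 255.2 ± 8.63 FPKM with HNG and 280.7 ± 12.7 with AngII (log2 fold change -0.15, adjusted p = 0.0524, called in 8 of 19 alternatives). Of 20 regulators of the stability or modification of BCL2 proteins, 18 were tested and 1 called, Usp9x with HNG against MOTS-c, where 4.41% of all genes were called, so the count of the list lay near the background. Usp9x encodes a deubiquitinase that stabilises MCL1. It was 37.8 ± 1.75 FPKM with HNG and 42.7 ± 0.915 with MOTS-c, a log2 difference of -0.19 with an adjusted p-value of 0.0230, lost in 8 of 19 alternatives. Its AngII mean lay between, at 40.2 ± 1.37 FPKM, and it was not called in either comparison with AngII.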

How the data were processed

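Counts per gene, whole numbers without normalization, and FPKM values of the same genes were deposited by the authors. Per the labels and methods, RNA was extracted with Trizol, libraries were made with the Hieff NGS Ultima Dual-mode mRNA kit and paired-end reads were sequenced on a DNBSEQ platform. The submitters' processing notes name HISAT2, Picard 1.41 and SAMtools 0.1.18. The genome build, the counting tool and the use of strand are not given in the sources used here. The spans of Bak1, Bcl2, Bcl2l1 and Bcl2l11 overlap those of other genes on either strand, so their counts could include reads of these genes. Whether exons overlap was not examined.

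Groups and replicate numbers were taken from the sample titles. Counts were analysed with edgeR 4.0.16 in R 4.3.3: filterByExpr, TMM scaling, glmQLFit and glmQLFTest on the 8 libraries of each comparison, two-sided, with Benjamini-Hochberg adjustment over all genes tested and a threshold of 0.05. Standard errors were derived from the F statistic, and log2 CPM used a prior count of 2. The fits were tested on simulated data. Alternatives were DESeq2 1.42.0, limma 3.58.1 on log2 FPKM plus 1 or 0.1, other scaling, filters, samples, blocks and summed libraries, and each library left out.

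The members and lists were chosen with earlier results of these data known. The genes named were the members, the called genes of each pathway list, or the gene with the smallest p-value where a list had none, and the 3 genes most like a called member (at least 1 FPKM on average). The marker genes and motifs were named after their values were seen. Columns of the file that name no library were not used as measurements. Promoter windows came from RefSeq, matched by symbol.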

Additional observations from a re-analysis of the deposited data

Results flagged for a closer look

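In groups of 4, a library was compared with the others by Dixon's test at the 95% level, from the gap to its nearest neighbour over the range of the group. It marked 4 of the 39 sets of values tested, and chance marks about 1 in 20. Bax was 88.0 FPKM in HNG replicate 3, far above the other HNG libraries, and the ratio of Bax to Bcl2l1 was 3.75 there. Mcl1 was 65.6 FPKM in AngII replicate 3, above the others of its group, and 63.2 FPKM in HNG replicate 4, below the others.

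Some genes of the pathway lists differed between the peptides in the direct test of HNG against MOTS-c (edgeR quasi-likelihood). The log2 difference was 0.40 for Eda2r, -0.19 for Plk2 and -0.19 for Usp9x. None of the 10 members passed this test.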

How the results depend on the processing

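Of 570 refits of the members, 19 for each gene and comparison, 522 kept direction and side of the threshold. The call was lost in 11, all for Bid with HNG against AngII, and gained in 1. The direction turned in 36, always for uncalled differences, with a log2 value of at most 0.0979 in size after the turn. The cause of these changes was not tested. Bid lost its call with a replicate block, with a block made from the numbers of the library names, with replicates 2 and 3 summed (both have the same such number) and with limma on log2 FPKM plus 1 or plus 0.1, so that 0 members were called with HNG against AngII under each. With 1 library left out it was 0 to 1 members.

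Counts over all genes moved more. For HNG against AngII, 577 genes were called with replicates 2 and 3 summed, 541 without replicate 4 of both groups, and 431 (without AngII replicate 1) to 932 (without HNG replicate 3) with 1 library left out, including 485 and 512 without AngII replicates 2 and 3. For MOTS-c against AngII, 3 were called by DESeq2, 2 with the replicate block, 0 with all 12 libraries in 1 fit, 0 with replicates 2 and 3 summed, 0 without replicate 4 of both groups, and 0 with 1 library left out, except 3 without MOTS-c replicate 1. For HNG against MOTS-c, 1042 were called by DESeq2, 975 with all 12 libraries, 377 without replicate 4 of both groups, and 322 (without MOTS-c replicate 2) to 625 with 1 library left out, including 324 and 389 without MOTS-c replicates 1 and 3 and 416 without HNG replicate 2. With the replicate block 1054 were called, including 1 member, Bcl2l1, with a log2 difference of 0.16 and an adjusted p-value of 0.0448. For HNG against AngII the replicate block called 1111 genes. Libraries with the same number correlated in their deviations from the group means by -0.0276 to 0.245. Replicate 4 had the highest value in each comparison and matched replicate 4 best in each. Its values were 0.119 (HNG against AngII), 0.134 (MOTS-c against AngII) and 0.245 (HNG against MOTS-c). Not every pair was over 0.1, and not every other library matched its own number best, so the numbers were not taken to pair the libraries. Whatever replicate 4 shares across the groups was not modelled in the reported tests.

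Differences near 0 turned in direction as follows, on the log2 scale. For HNG against AngII, Bak1 was 0.0067 with limma at FPKM plus 1 and 0.0070 at plus 0.1, and with 1 library left out Bak1 ran from -0.039 to 0.014, Bcl2 from -0.072 to 0.042 and Bbc3 from -0.14 to 0.038. For MOTS-c against AngII, Bak1 was 0.0058 with the library-name block, 0.019 with replicates 2 and 3 summed, and 0.017 and 0.018 with limma at plus 1 and plus 0.1. In that comparison Pmaip1 was -0.041 with the library-name block and Bcl2 -0.046 without replicate 4 of both groups. With 1 library left out, Bax ran from -0.059 to 0.0021, Bak1 from -0.033 to 0.017, Bcl2 from -0.098 to 0.13, Pmaip1 from -0.041 to 0.15 and Plk2 from -0.049 to 0.010. For HNG against MOTS-c, Bad was 0.013 with the library-name block and Bbc3 -0.0037 with replicates 2 and 3 summed, and without replicate 4 of both groups Bak1 was 0.047, Bcl2 0.026 and Mcl1 0.013. With 1 library left out, Bak1 ran from -0.040 to 0.018, Bcl2 from -0.16 to 0.078, Bad from -0.058 to 0.024, Mcl1 from -0.041 to 0.0016 and Bbc3 from -0.071 to 0.11. By CPM in place of FPKM, 4 of the 10 members kept their place in the order of levels.

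Leaving HNG replicate 3 out of the ratios, shares and coefficients of variation was chosen after seeing the data. The lowest counts behind a member were those of Bcl2, at 91 to 161 per library. The part of depth in the width of its intervals was not tested.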
